A study of Mus musculus with 6 samples.

Results

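Egr1, Egr2, Junb, Cyr61, Plk2 and Hspa1b are 6 genes of the early response of cells to growth factors, tissue handling and heat, and they were followed here in the mesenchyme of the mouse maxillary arch at embryonic day 10.5. They were found by gene symbol in the authors' deposited significance table, which holds 1061 probe sets and gives a single symbol to 928 of them, for 842 genes. The 6 genes have 8 probe sets there, of the 45101 on the array. Cyr61 and Hspa1b have a pair each, and the other genes have 1 each. Every listed probe set had been kept by the submitters for a difference between the groups on these same arrays, so the direction and p of the 8 describe that choice and are not independent evidence.

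The 6 arrays came from 6 female embryos matched for somite number and bred on a mix of C57BL/6J, 129 and CD-1, of which 3 were wild type and 3 were Lhx6-/-;Lhx8-/- double mutants, homozygous for mutant alleles of both LIM-homeodomain genes. The tissue was cut by laser from frozen head sections, over the region in which Lhx6 and Lhx8 are normally active. The RNA was amplified and hybridised to Affymetrix Mouse Genome arrays, and the deposit gives 2 sets of intensities: a value table of every probe set, with wild types 1, 4 and 5 and double mutants 1, 2 and 4, and the columns called raw in the significance table, where a wild-type column carries the number 3, which no sample title has, in place of 1.

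Immediate early genes are transcribed within minutes of a signal without new protein synthesis, mostly through the ERK kinase cascade, the serum response factor and CREB, and their messages are short-lived. Egr1, Egr2 and Junb encode transcription factors of this class. Cyr61, now named Ccn1, encodes a secreted matrix protein that is also a widely used target of the mechanically regulated cofactor YAP, and Plk2 encodes a polo-like kinase induced by serum and by p53. Hspa1b encodes an inducible HSP70 chaperone that heat shock factor switches on when proteins misfold. Transcripts of both kinds are known to move during tissue dissection, and in the embryo they also report growth factor signalling in mesenchyme and, for Egr2, hindbrain segments and Schwann cells.

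The promoters of 4 of these genes are shown because they hold letters that match elements on which the signals named above are known to act. Each is the RefSeq window of 300 bases, from 250 before to 50 after an annotated start, on GRCm38.p6, printed on the gene's strand. Capitals mark matches to the full cyclic AMP response element TGACGTCA or its core TGACGT, the serum response element, a pair of heat shock units (GAANNTTC or TTCNNGAA), the TATA box TATAAA or the CCAAT box. Both strands were searched, the core overlaps the full element, and the EGR site GCGNGGGCG and the AP-1 site TGANTCA were also searched and had no match in these windows.
Cyr61 (chr3:145649936-145650235, minus strand): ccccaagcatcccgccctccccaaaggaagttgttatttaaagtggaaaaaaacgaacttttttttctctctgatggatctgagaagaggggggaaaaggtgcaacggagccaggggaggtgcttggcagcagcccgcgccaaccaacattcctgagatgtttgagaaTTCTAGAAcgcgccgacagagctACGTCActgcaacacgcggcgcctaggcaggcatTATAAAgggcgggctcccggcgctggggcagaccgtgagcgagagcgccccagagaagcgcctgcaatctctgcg
Plk2 (chr13:110394794-110395093, plus strand): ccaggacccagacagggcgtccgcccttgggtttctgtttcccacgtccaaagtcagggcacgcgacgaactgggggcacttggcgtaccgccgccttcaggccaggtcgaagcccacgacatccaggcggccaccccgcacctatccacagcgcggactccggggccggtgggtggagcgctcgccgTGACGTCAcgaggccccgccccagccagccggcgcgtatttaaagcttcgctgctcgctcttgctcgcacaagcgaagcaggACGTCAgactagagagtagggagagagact
Egr2 (chr10:67537619-67537918, plus strand, 1 of its 5 windows): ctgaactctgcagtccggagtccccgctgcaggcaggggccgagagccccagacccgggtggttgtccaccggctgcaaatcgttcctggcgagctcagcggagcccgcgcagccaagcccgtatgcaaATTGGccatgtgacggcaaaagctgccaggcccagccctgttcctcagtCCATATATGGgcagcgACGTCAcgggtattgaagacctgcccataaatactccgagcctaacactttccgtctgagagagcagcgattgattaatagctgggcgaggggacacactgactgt
Hspa1b (chr17:34959189-34959488, minus strand): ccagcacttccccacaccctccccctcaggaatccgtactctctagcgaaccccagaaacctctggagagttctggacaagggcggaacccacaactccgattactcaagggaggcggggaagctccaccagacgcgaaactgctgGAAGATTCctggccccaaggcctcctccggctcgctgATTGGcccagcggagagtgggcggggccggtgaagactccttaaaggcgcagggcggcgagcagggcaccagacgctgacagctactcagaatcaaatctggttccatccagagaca

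The Plk2 window held the full cyclic AMP response element, which 1.79% of the 32851 promoter windows of this length hold. Cyr61 and this Egr2 window held its core, as did 7.51% of all windows. The Egr2 window also held a serum response element, present in 1.63% of windows, as did 3 more of the 5 Egr2 windows, 2 of which overlap the one printed. Hspa1b held 1 outward heat shock unit, GAANNTTC, present in 7.86% of windows, and Cyr61 an inward one, TTCNNGAA, present in 8.52%. The Junb window on chromosome 8 held a TATA box, found in 13.6% of windows, and a CCAAT box, found in 37.4%. Matches in the Egr1 window were not examined. A match of letters is a description of the sequence and not a bound site. The Hspa1b window was identical to that of its neighbour Hspa1a at 296 of 300 positions, and in the deposited annotation the sequence behind both Hspa1b probe sets has a further, weaker alignment on chromosome 17. Whether these probe sets also detect Hspa1a was not tested.

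From array to array the median intensity of the value table ran from 19 to 20.5, and the number of arrays limits the precision of every value. The array labelled double mutant 1 stood apart, since the Actb control probe sets gave 24.8 times as much signal at the 3' as at the 5' end, where the other 5 arrays had 1.62 to 1.85, and those of Gapdh 17.8 times as much, where they had 1.36 to 1.6. Log2 fold changes without it are given beside those with it for the 6 genes. Lhx8 intensity on that array, 2036, lay inside the wild-type range of 1992 to 2241, while double mutants 2 and 4 had 699 and 911. In the deposited intensities the same array had 5177, below the wild types at 8628 to 9493 and above double mutants 2 and 4 at 2711 and 3177. Whether this probe set lies in the deleted part of the gene was not examined, so it is no check of the label. Lhx6 was not analysed here. Of 15 maxillary mesenchyme markers the deposited table names Barx1, Lhx8 and Msx1, all as lower. On the array 0.922% of all probe sets were listed as lower. Without Lhx8, itself mutated here, the summed value-table intensity of Barx1 and Msx1 was 1446 to 1714 in the wild types and 1251, 1131 and 834.3 in double mutants 1, 2 and 4. Msx1 had an intensity of 774.5 or more on every array in the value table, and Barx1 one of 39.3 or more.

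The 5 immediate early genes had a higher mean intensity and Hspa1b a lower one in the double mutants, in both tables. The differences that were tested in the value table did not pass adjustment, and those of Egr2, Junb and Hspa1b were not tested there. The authors' deposited table lists 6 of the 8 probe sets as higher and 2 as lower, where 1.43% of all probe sets on the array were listed as higher and 0.922% as lower, 2.35% in either direction. Because the genes were found through that list, nothing is read from these counts. Of the 8, the 3 probe sets of Cyr61 and Plk2 met all 3 of the submitters' criteria in the authors' deposited table (p under 0.05 before adjustment, a fold above 1.5, a group mean above 100), which 0.251% of all probe sets met as higher and 0.328% as lower. Of the 8, the probe sets of Egr1 and Plk2 and 1 of Cyr61 passed the intensity filter of the value table, a mean over 100 in either group, and these 3 were tested there with limma on log2(intensity + 16). None of these 3 had an adjusted p under 0.05, as was the case for 0% of the 14446 probe sets tested; at an unadjusted p under 0.05 limma counted 245 probe sets, and the ordinary unpaired test counted 346 unadjusted and 0 adjusted. All 3 had an unadjusted limma p under 0.05, as higher, which 0.907% of the tested probe sets had. Without double mutant 1 the 3 again had one, beside 3.12% of those tested, and 0 of the 3 passed adjustment, beside 0.0647%. The 3 were found through a list chosen by an unadjusted p on these same arrays, so nothing is read from their unadjusted p beside these shares. A fit with array quality weights gave double mutant 2 a weight of 20, double mutant 4 one of 0.229 and double mutant 1 one of 0.0375, so the double mutants were in effect 1 array there. In it all 3 had an adjusted p under 0.05, as did 11.2% of the probe sets tested (6.19% as higher), at log2 fold changes of 0.51 for Egr1, 0.60 for Cyr61 and 0.61 for Plk2, and nothing is read from these calls. In these bulk samples fewer cells of a type and less RNA per cell cannot be told apart.

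**Figure D1:**
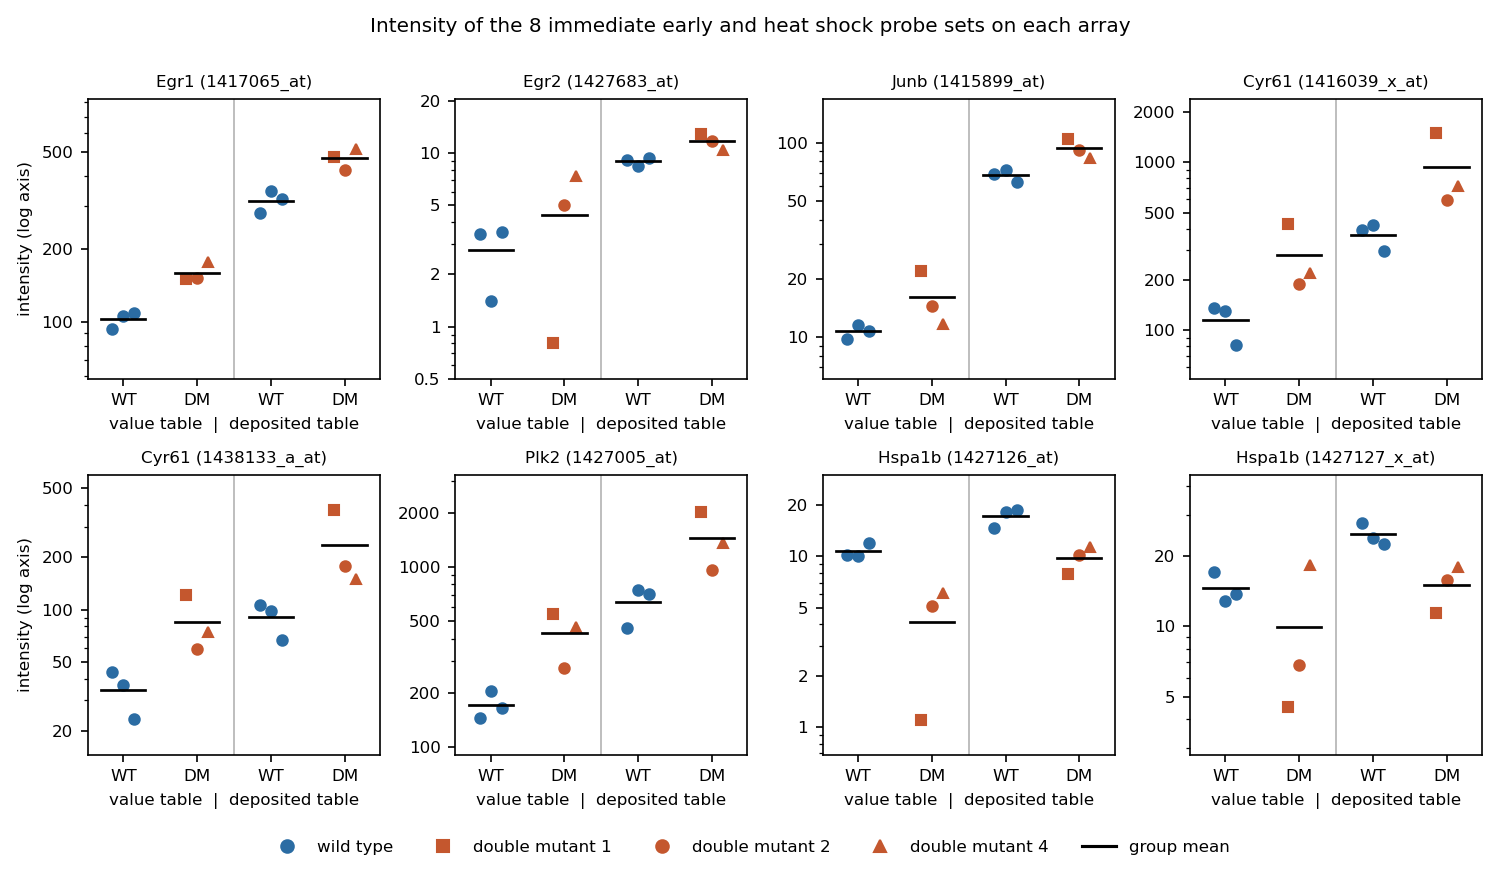
Intensity (log axis) of each of the 8 probe sets on every array, with the value table on the left and the deposited table on the right of each panel, and horizontal lines at the group means. The double mutants lie above the wild types in both tables for Egr1, Junb, Cyr61 and Plk2, while Egr2 and the Hspa1b probe set 1427127_x_at overlap in the value table.

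Egr1 (probe set 1417065_at), the zinc-finger factor most often used as a readout of ERK activity, had the smallest spread of the brighter genes. Its value-table intensities were 93.7, 105.8 and 109 on wild types 1, 4 and 5, and 150.8, 152.5 and 176.6 on double mutants 1, 2 and 4. The groups did not overlap, and the array labelled double mutant 1 was the lowest of its group. The means were 102.8 ± 8.1 and 160.0 ± 14.4 (SD, n = 3). The log2 fold change was 0.57 ± 0.21 (SE), and limma's p was 0.0303 before and 0.764 after adjustment. Without the array labelled double mutant 1 the log2 fold change was 0.60, with an adjusted limma p of 0.422. The deposited intensities were 282, 345 and 321 in the wild types and 480, 422 and 517 in the double mutants. The fold in the authors' deposited table was 1.496 with p = 0.00865, just below the submitters' fold limit of 1.5.

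Egr2 (probe set 1427683_at), known as Krox20 from hindbrain segments and myelinating Schwann cells, gave almost no signal. Its value-table intensities were 3.4, 1.4 and 3.5 in the wild types and 0.8, 5 and 7.4 in the double mutants, under the median of all probe sets on every array. The groups overlapped, because the array labelled double mutant 1 was the lowest of all 6. In the deposited intensities that same array was the highest of all, with 12.8, beside 11.8 and 10.4 on the other double mutants and 8.46 to 9.43 in wild type. The 2 tables therefore place double mutant 1 at opposite ends for Egr2, and the fold of 1.29 with p = 0.0195 in the authors' deposited table rests on intensities of about 10. The value-table log2 fold change was 0.11 with all arrays and 0.24 without double mutant 1.

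Junb (probe set 1415899_at), a partner of FOS proteins in the AP-1 dimer, was also dim. It had value-table intensities of 9.8, 11.6 and 10.8 in the wild types and 22, 14.4 and 11.7 in the double mutants. The groups did not overlap, but double mutant 4 was only 0.1 above the highest wild type in rounded intensity. Its deposited intensities were 68.9, 71.9 and 62.8 in the wild types and 105, 92.1 and 83.5 in the double mutants, with a mean of 67.9 ± 4.7 against 93.4 ± 10.7 (SD, n = 3). The fold in the authors' deposited table was 1.37 with p = 0.0147. The value-table log2 fold change was 0.25 with all arrays and 0.12 without double mutant 1. Junb and Egr2 were under the value table's filter of a mean over 100 and were not tested there.

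Cyr61 showed the widest relative spread between double mutants of the 3 genes tested. Its brighter probe set, 1416039_x_at, had value-table intensities of 135, 129.7 and 82 in the wild types and 428.6, 188.3 and 219.8 in the double mutants. The groups did not overlap, and the array labelled double mutant 1 stood 2.28 times above double mutant 2, where the wild types spanned 1.65 times. The log2 fold change was 1.10 ± 0.37 (SE), and limma's p was 0.0206 before and 0.764 after adjustment. Without that array it was 0.76, with an adjusted limma p of 0.598. The other probe set, 1438133_a_at, had 43.9, 36.6 and 23.3 in the wild types and 121.3, 59.6 and 74 in the double mutants. Both probe sets ranked the 6 value-table arrays in the same order, with wild type 5 the lowest of all, and the log2 fold change of this one was 0.97, or 0.73 without double mutant 1. They lie on the same transcript, on chromosome 3 from 145309937 to 145312949 in the file's annotation (genome build not stated in the sources used), so they are 2 readings of 1 gene. The folds in the authors' deposited table were 2.36 and 2.44, with p = 0.0452 and 0.0465.

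Plk2 (probe set 1427005_at), a kinase that acts at centrioles and synapses, had the largest log2 fold change of the 8 in the value table. Its intensities there were 145.7, 205.5 and 164.6 in the wild types and 546.3, 276.8 and 463.2 in the double mutants. The groups did not overlap, and double mutant 2 was the lowest of its group. The means were 171.9 ± 30.6 and 428.8 ± 138.0 (SD, n = 3). The log2 fold change was 1.20 ± 0.31 (SE), and limma's p was 0.00683 before and 0.764 after adjustment. Without the array labelled double mutant 1 it was 1.01, with an adjusted limma p of 0.472. The deposited intensities were 458, 745 and 704 in the wild types and 2020, 959 and 1363 in the double mutants. The fold in the authors' deposited table was 2.22 with p = 0.0392.

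Hspa1b differed from the other genes in direction and was dim on both probe sets. Probe set 1427126_at had value-table intensities of 10.2, 10.1 and 12 in the wild types and 1.1, 5.1 and 6.1 in the double mutants, without overlap. Probe set 1427127_x_at had 17.1, 12.8 and 13.8 in the wild types and 4.5, 6.8 and 18.4 in the double mutants, where double mutant 4 exceeded all wild types. The array labelled double mutant 1 was the lowest of the 6 for both. Every one of these intensities lay under the median of all probe sets on its array, and neither probe set was tested in the value table. The log2 fold changes there were -0.42 and -0.27 with all arrays, and -0.31 and -0.12 without double mutant 1. In the deposited intensities the groups were apart for both: 17.2 ± 2.2 in the wild types and 9.79 ± 1.75 in the double mutants for the first, and 24.8 ± 2.8 and 15.1 ± 3.3 for the second (SD, n = 3). The folds in the authors' deposited table were 1.77 and 1.67 lower, with p = 0.0122 and 0.0269, and both probe sets failed the submitters' limit of 100 on the mean.

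In all, 6 of the 8 probe sets had groups that did not overlap in the value table, and 7 of 8 did not overlap without the array labelled double mutant 1, where Egr2 joined them. Over all 45037 probe sets other than controls, groups did not overlap as higher in 6.72% and as lower in 4.06%, and without that array in 12.7% and 8.01%. In the deposited intensities none of the 8 overlapped, which holds for 100% of the listed probe sets. The median log2 fold change of the 8 in the value table was 0.41, and over the 6 listed as higher it was 0.77, beside 0.31 for all probe sets listed as higher and 0.04 for all probe sets. Listing on these arrays shapes these medians, Cyr61 counts with a pair, and the sets were not matched for intensity. Nothing is read from them.

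**Figure D2:**
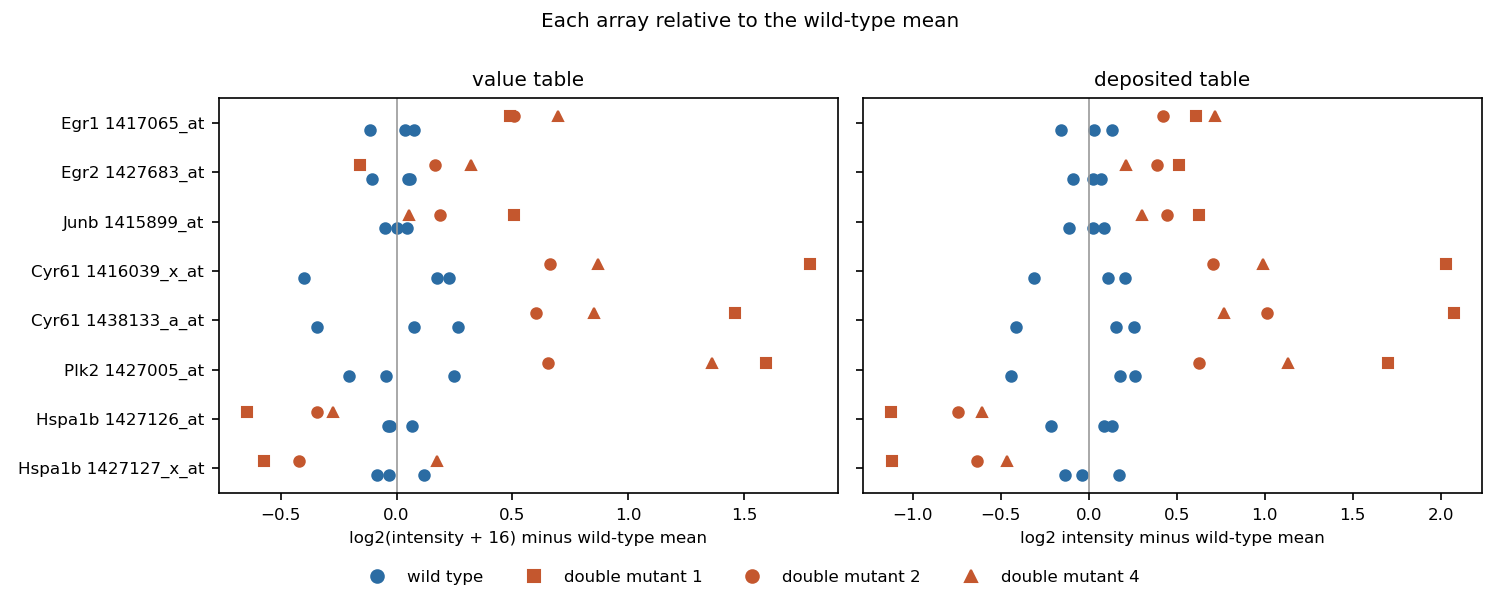
Distance of each array from the wild-type mean on the log2 scale, with the value table (log2 of intensity + 16) on the left and the deposited table (log2 of intensity) on the right; circles in blue are wild types and orange symbols are double mutants. The square of double mutant 1 lies farthest right for Cyr61, Plk2 and Junb and farthest left for Hspa1b in both tables, but not for Egr1, and it changes sides for Egr2.

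The question of whether these genes move together across arrays, as a response to handling would, was addressed by the order of the arrays. In the value table the 8 probe sets gave 3 different orders of the double mutants. Double mutant 1 led double mutants 4 and 2 in 3 of them (both Cyr61 probe sets and Plk2), it led 2 and 4 for Junb, and 4 probe sets (Egr1, Egr2 and both of Hspa1b) had double mutant 4 highest and double mutant 1 lowest. Cyr61, Plk2 and Junb thus had their highest value there on the array on which Egr1 had the lowest of its group. For Egr1 double mutants 1 and 2 were close, at 150.8 and 152.5, and Egr2 and Hspa1b were dim. In the deposited intensities the lowest double mutant for Egr1 was 2, with 422, beside 480 on double mutant 1. By the value table double mutant 1 was the highest double mutant for 4 of the 6 higher-listed probe sets. It was so for 45.1% of the 645 probe sets listed as higher and for 42.5% of all 14446 tested. In the deposited intensities it was the highest for 5 of the 6, all but Egr1, against 48.5% of the 645. In both tables it was the lowest double mutant for both Hspa1b probe sets, as it was, of the probe sets listed as lower, for 58.4% by the value table and 57.2% by the deposited intensities. Double mutant 1 was also the array with the high 3' to 5' control ratios. Their part in its position in the 8 probe sets was not tested.

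Between double mutants 2 and 4, which had control ratios like those of the wild types, double mutant 4 was higher for 7 of the 8 probe sets in the value table, all but Junb. This order held for 55.0% of all listed probe sets, 55.0% of all probe sets and 46.2% of those tested. The 7 include both probe sets of Cyr61 and of Hspa1b, so they stand for fewer genes, and Egr2 and Hspa1b were dim. In the deposited intensities double mutant 4 was higher for 5 of the 8, against 50.6% of the listed probe sets, since Egr2 and the dimmer Cyr61 probe set turned round. Among the wild types of the value table the genes did not share an order either. Wild type 5 was the lowest of its group there for both Cyr61 probe sets and the highest for Egr1, and wild type 4 was the highest for Plk2 and Junb. In the deposited intensities wild type 4 was the highest wild type for 4 of the 6 higher-listed probe sets, against 31.9% of the 645. These were Egr1, Junb, Plk2 and the brighter Cyr61 probe set. With 3 arrays in each group no correlation between genes was tested, and an exact permutation test of 3 against 3 arrays could not give a p under 0.1.

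The folds of Cyr61 and Plk2 were larger than those of Egr1 and Junb and spanned a wider range when arrays were left out of the deposited intensities 1 at a time. The recomputed fold of Egr1 stayed between 1.42 and 1.58 and that of Junb between 1.29 and 1.45, and in all 6 recomputations each had an unadjusted p under 0.05. The brighter Cyr61 probe set ran from 1.80 to 2.84 and kept p under 0.05 in 2 of 6, the dimmer one ran from 1.85 to 2.92 and kept it in 1 of 6. Plk2 ran from 1.84 to 2.67 and kept it in 1 of 6. The lowest fold of each of these 3 came without the array labelled double mutant 1. Egr2 kept p under 0.05 in 3 of 6, at folds of 1.23 to 1.37. For Hspa1b, probe set 1427126_at kept it in 6 of 6 and 1427127_x_at in 2 of 6, at folds of 1.46 to 1.91 over both. These are p-values of the submitters' unpaired test without adjustment, on probe sets chosen by that test and on the same intensities, so how often p stays under 0.05 follows largely from the p that put each on the list, and no stability is read from it.

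**Figure D3:**
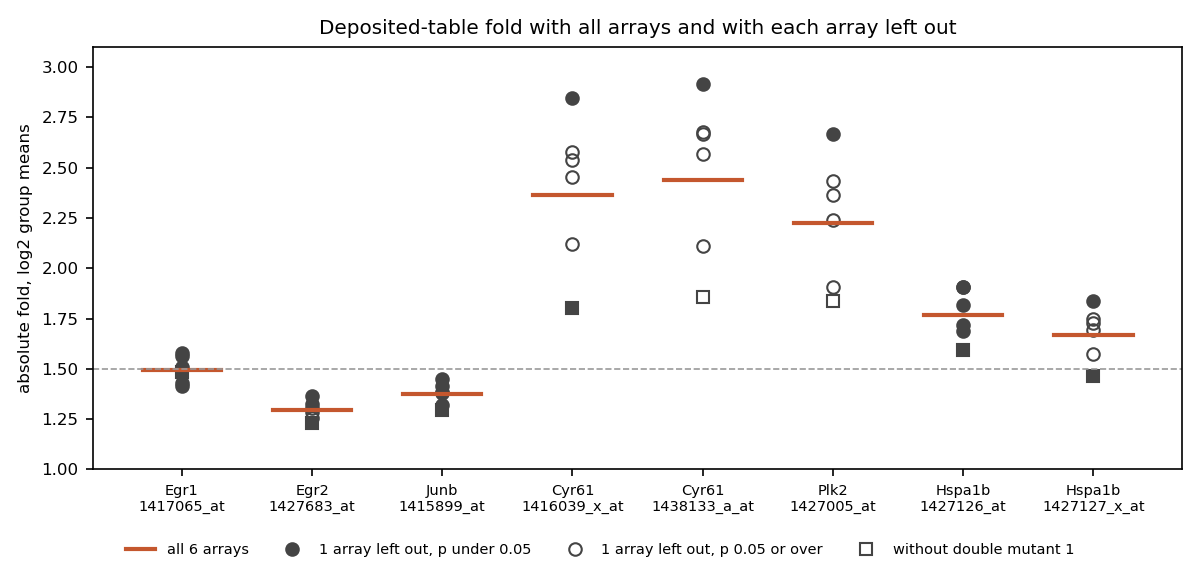
Absolute fold from log2 means of the deposited intensities, with all 6 arrays (orange bar) and with each array left out (symbols; filled where the unadjusted p was under 0.05, squares without double mutant 1), and a dashed line at the submitters' fold limit. The folds of Egr1 run from 1.42 to 1.58 and those of Plk2 from 1.84 to 2.67; filled and open symbols follow largely from the p on which the probe sets were listed.

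The lists that follow count genes, and nothing is read from their counts. Of all probe sets on the array 2.35% were listed, 1.43% as higher and 0.922% as lower. Of 56 other immediate early genes on a list, the deposited table names 5, of which 4 were listed as higher and 1 as lower, on 8 probe sets. None of the 5 probe sets of these genes that could be tested had an adjusted limma p under 0.05 in the value table, where the median log2 fold change of the 8 was 1.07. Nr4a2, an orphan nuclear receptor gene, was listed with 4 probe sets. The brightest, 1455034_at, had value-table intensities of 256.7, 313.6 and 277.6 in the wild types and 2677, 616.9 and 577.2 in the double mutants. Its log2 fold change was 1.75 ± 0.59 (SE) with an adjusted limma p of 0.764, or 1.04 with an adjusted limma p of 0.108 once double mutant 1 was dropped. Gadd45g, which encodes a stress-induced growth arrest protein, had 67.9, 54 and 48.9 in the wild types and 351.4, 98.8 and 164.8 in the double mutants, a log2 fold change of 1.44, or 0.99 without double mutant 1. Phlda1, which encodes a pleckstrin-homology protein, had 259.1, 293 and 243.6 in the wild types and 812.8, 531.6 and 311.4 in the double mutants, a log2 fold change of 0.92, or 0.59 without double mutant 1. For Nr4a2, Gadd45g and Phlda1, as for Cyr61 and Plk2, double mutant 1 was the highest array.

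Thbs1, the gene of a matrix glycoprotein induced by serum, had nearly equal values in the double mutants. They were 287.2, 295.7 and 290.6 in the value table, against 197.1, 166.8 and 167 in wild type. Btg1, an antiproliferative gene, was the one listed as lower, with 66.5, 80.9 and 77.3 in the wild types and 60.6, 51.7 and 49.5 in the double mutants. In the authors' deposited table the folds of these 5 genes ran from 1.43 lower for Btg1 to 3.47 higher for the Nr4a2 probe set 1447863_s_at. Double mutant 1 was the highest double mutant for 7 of the 8 probe sets in the value table, all but Thbs1. These include every Nr4a2 probe set, so they stand for fewer genes. For Btg1, listed as lower, the highest double mutant is the one nearest the wild types. Over all listed probe sets the share was 45.1% of those listed as higher and 19.5% of those listed as lower. The other 51 genes of the list, which include Fos, Jun, Ier2, Dusp1 and Atf3, are not named in the deposited table and were not analysed here.

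**Figure D4:**
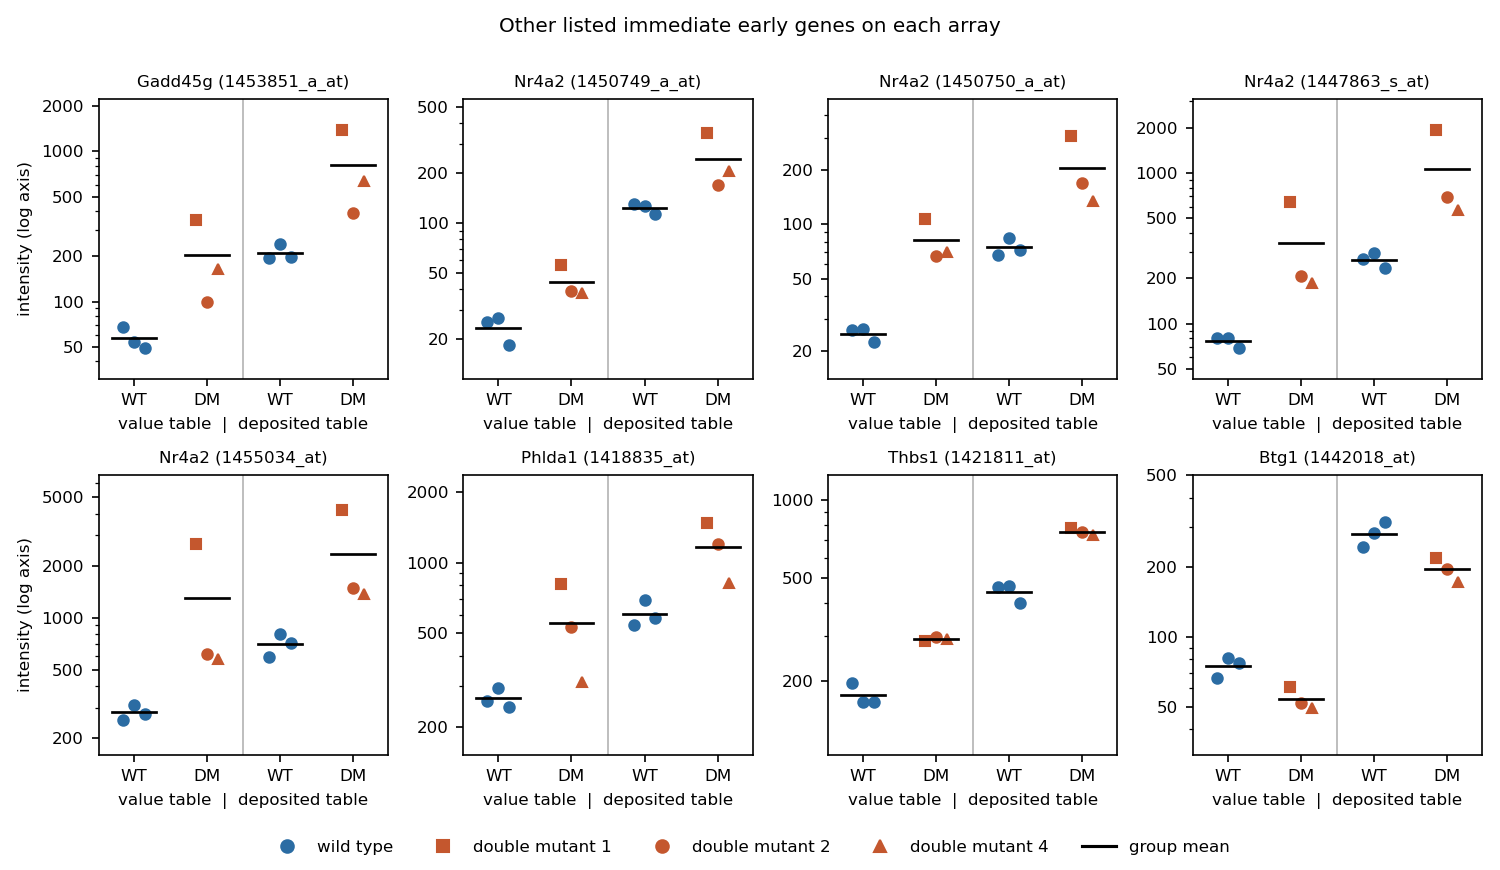
Intensity (log axis) of the 8 probe sets of the other listed immediate early genes on each array, arranged as value table and deposited table in each panel, with lines at group means. Double mutant 1 lies well above double mutants 2 and 4 for Nr4a2 and Gadd45g, while the double mutants of Thbs1 lie close together.

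Of 41 other heat shock and chaperone genes the deposited table names 3, all listed as higher, opposite to Hspa1b. They are Hspa4l and Hspa12a, relatives of HSP70, and the small heat shock gene Hspb8, and the authors' deposited table gives them folds between 1.33 and 1.41. Their value-table means were 2.17 to 14.1 in the wild types and 5 to 19.7 in the double mutants, and 0 of the 3 passed the intensity filter. Hspa4l had 14.8, 17.6 and 9.9 in the wild types and 15.1, 15.5 and 28.6 in the double mutants, so its groups overlapped. Hspa12a overlapped as well, and Hspb8 did not.

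On a list of 34 genes of growth factor, ERK, serum response factor and YAP signalling, 5 were named, 2 as higher and 3 as lower. Egfr, the receptor of EGF-family ligands, had value-table intensities of 12.7, 7.5 and 8.5 in the wild types and 54.4, 43.1 and 80.5 in the double mutants on its brighter probe set. The authors' deposited table gives that probe set a fold of 3.81, with p = 0.00568. Fgfr2, an FGF receptor gene, had means of 441.1 ± 45.9 and 795.6 ± 70.3 (SD, n = 3) in the value table on its brighter probe set. Dusp6, whose phosphatase product limits ERK, had means of 1137 ± 67 and 683 ± 87 (SD, n = 3), and the ETS factor gene Etv1 and the kinase gene Braf were also listed as lower. The log2 fold changes with all arrays and without double mutant 1 were 1.53 and 1.57 for Egfr, 0.83 and 0.83 for Fgfr2 and -0.73 and -0.62 for Dusp6. Of these, the 4 brighter probe sets of Fgfr2, Dusp6, Etv1 and Braf were tested, and 0 had an adjusted limma p under 0.05. By value-table intensity every double mutant lay above the wild types for Egr1 and below them for Dusp6. The adjusted limma p was 0.764 for each gene. Both were listed for a group difference on these same arrays, so nothing is read from their directions. Whether ERK activity differed between the groups was not tested. Of 26 genes of other stress responses, Hif1a and Pdk1 were named, both as lower, by folds of 2.18 and 1.38 in the authors' deposited table. The Hif1a probe set was dim, and its groups overlapped in the value table. It had 19.9, 16.7 and 37.7 in the wild types and 8, 10.4 and 20 in the double mutants.

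Markers of glial cells of the neural crest, which are also known to express Egr2, were set beside it. Of 6 glial crest markers 4 were listed, all as higher: Sox10, Erbb3, Foxd3 and Ngfr. The summed value-table intensity of their 5 probe sets ran from 66.1 to 72.7 in the wild types and from 159.7 to 226.3 in the double mutants. Most of that sum came from the Ngfr probe set 1454903_at, with means of 52.3 and 124, the only 1 over the filter. The other probe sets were dim, with wild-type means of 0.57 to 11.8. Sox10 was at 0.4 to 0.8 in the wild types and at 23.9, 4.9 and 11.2 in the double mutants. Their part in the Egr2 values was not tested. None of 11 epithelial, 9 endothelial, 7 blood, 5 macrophage, 9 neural, 4 muscle and 5 pericyte markers is named in the deposited table, so these cell types were not analysed here.

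The genes most like each of the 6 across the value table were taken from the 224 named probe sets over the filter, by Pearson r of log2(intensity + 16) over the 6 arrays, as a description. The candidates were all listed for a group difference on these arrays, and the arrays fall into the same 2 groups for each. For Egr1 they were Rbms3 and Mn1, for Plk2 Ube2h and Ehmt1, and for Cyr61 Sdk2 and Ets1. For Junb they were Runx1t1 and Tgfbi, for Egr2 Bgn and Mina, and for Hspa1b Rnf150 and Lclat1. These r ran from 0.898 to 0.989. Over the 5 arrays without the array labelled double mutant 1, Rbms3, Ube2h, Tgfbi and Rnf150 stayed among the first 2 for Egr1, Plk2, Junb and Hspa1b, and neither of those named for Egr2 and Cyr61 did. Phlda1 joined for Junb over those 5 arrays. None of the 12 genes named over 6 arrays was another of the 6 early response genes, of which Egr1, Cyr61 and Plk2 were over the filter. With only 2 genes kept from 224 candidate probe sets each time, this does not tell whether the 6 moved together.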

How the data were processed

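Expression was measured on 6 Affymetrix mouse arrays, 3 from wild-type and 3 from double-mutant embryos. The deposited value table holds linear intensity for 45101 probe sets, 64 of them controls; per the submitters' processing notes RMA was used, but these values hold zeros on a linear scale, and no source used here states their summarisation. The deposited significance table holds intensity columns called raw, with a p-value from an unpaired test and a fold without sign, per the file headers, and lists what passed p of 0.05 (uncorrected) and a fold limit; recomputing p from log2 of those columns matched to within 5.14e-07. Its 6 log2 columns of normalised values, deposited beside them, were not used (each equals log2 intensity minus the wild-type median). Genes were named from that table alone.

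A constant of 16 was added to value-table intensities before log2, which understates changes of dim probe sets; probe sets with a mean over 100 in either group were kept, and limma 3.58.1 (lmFit, eBayes; R 4.3.3) was fitted on all 14446, with Benjamini-Hochberg adjustment. Other steps used Python 3.11.15 with pandas 2.3.3, scipy 1.17.1, numpy 2.4.6 and, for figures, matplotlib 3.10.9. The arrays are described as different embryos; p-values measure the spread between them. Named are the 6 genes, listed genes of 4 pathway lists, marker lists, and the 2 most alike genes of each of the 6. Members and lists were chosen with earlier results of these data known. Alternatives were other normalizations, constants and filters, leaving out each array, a replicate block, array weights, the ordinary test and a robust prior.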

Additional observations from a re-analysis of the deposited data

How the results depend on the processing

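Every log2 fold change of the 8 probe sets in the value table kept its sign under the alternatives run. No probe set of the 6 genes passed an adjusted p of 0.05 except with array quality weights, where Egr1, Cyr61 and Plk2 had adjusted limma p of 0.00571, 0.0183 and 0.0156, at log2 fold changes of 0.51, 0.60 and 0.61; that fit gave double mutant 1 a weight of 0.0375, double mutant 4 one of 0.229 and double mutant 2 one of 20, so 1 double mutant carries most of that group. Of all probe sets tested 0 passed in the value table, 1619 with those weights, and 0 to 9 with 1 array left out (9 without double mutant 1, 2 without double mutant 4). Quantile normalization, a common median, other constants, no intensity filter, the ordinary test and a robust prior left the count at 0. The median log2 fold change of the 8, 0.41, was 0.51 with a constant of 4 and 0.26 with 64, and 4 of the 8 have wild-type means under that of the middle probe set. With the replicate number as a block 2 probe sets passed, none of them of these genes, and the median was 0.46; numbers 1 and 4 alone are shared, and same-numbered arrays deviated together at 0.07 and -0.08, so the numbers were not taken as pairs. The 3 probe sets of these genes meeting the submitters' criteria in the deposited intensities became 0 to 3 with 1 array left out: 0 without the wild-type array with no matching number, 1 without wild type 4, wild type 5, double mutant 1 or double mutant 4. With the lower fold limit of the file's header they were 4. The causes of these changes were not tested.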

Other observations

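A few other listed genes share an annotation with the 6 in the deposited table, by Gene Ontology terms chosen after the values were seen. Response to heat is annotated to 3 listed genes, of which Hspb8 and Cpb2 were listed as higher and Hspa1b as lower. Response to unfolded protein is annotated to 3 listed genes, Creb3l1 and Hspa4l as higher and Hspa1b as lower. Response to mechanical stimulus is annotated to 4, with Junb and Ets1 listed as higher and Angpt2 and Mtap1b as lower. Hspa1b was thus the gene listed as lower in the heat term and in the unfolded protein term.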
